A study of Mus musculus with 24 samples.

Results

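Interferon (IFN) epsilon at 100 IU/ml was set against IFN beta at 1000 IU/ml, a 10-fold higher dose, in ID8 cells, and the difference was followed gene by gene. ID8 is a mouse ovarian cancer line of surface epithelial origin. The members are 6 of the 24 arrays of the series, 3 of IFN epsilon 100 IU/ml and 3 of IFN beta 1000 IU/ml, taken by their labels and paired by replicate number. The pair of doses was chosen by the log2 array values, as earlier results of these arrays had set the doses side by side. How close the doses lie over all genes is therefore a description, and the p-values and intervals below measure the spread of single genes.

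The other groups held IFN epsilon at 10 and 1000 IU/ml, IFN beta at 10 and 100 IU/ml, and untreated cells that received the phosphate-buffered vehicle. All cells were plated in serum-containing RPMI medium, treated for 3 h with recombinant mouse interferon and harvested for total RNA, and technical wells of a treatment were combined into 1 sample. The 3 biological replicates were made on separate dates, called dates 1, 2 and 3 here, and each untreated sample was run on 2 arrays. The submitters' labels mark the IFN beta arrays of 10 and 100 IU/ml on date 3 as excluded from their final analysis, which leaves 19 biological samples in 7 groups. ID8 is a single established line, so the replicates are cultures of it. The fit takes out shifts that the groups share on a date. The p-values measure the spread between cultures that is left, pooled over all groups.

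Both proteins are type I interferons and act through the same cell surface receptor, made of Ifnar1 and Ifnar2. The receptor activates the kinases Jak1 and Tyk2, which phosphorylate transcription factors of the Stat family. These join Irf9 in a complex that binds the interferon-stimulated response element in promoters of antiviral and antigen presentation genes. IFN beta is released by many cells on virus infection, whereas IFN epsilon is produced constantly by the lining of the female reproductive tract.

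Across the 24 arrays the 75th percentile of signal lay between 619.3 and 1201 intensity units, 49.6% to 58.8% of probes were well above background and 0 spots were saturated. Of 12 ovarian epithelial markers, 10 were well above background in all 9 samples of both compared groups and untreated cells, among them Krt8, Krt18 and Wt1. Muc16 and Pax8 were not tested: either no probe was matched to them or none was well above background in 2 or more samples of a group. Mesenchymal markers were measured in all 9 samples for 9 of 10 genes. Of 18 leukocyte markers, 13 were likewise not tested, including Ptprc, and 5 were well above background in all 9 samples, including Itgam and Cd68. The leukocyte markers Cd3e, Cd4 and Csf1r were the other members of that 5, and what their probe signal stems from was not tested.

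The dates did not behave alike, and this bears on every value below. To follow the response, 375 interferon response genes were taken from a limma fit over 13 samples that held neither compared group: genes that rose at least 2-fold at an adjusted p under 0.05 with IFN epsilon at 1000 IU/ml against untreated cells. With IFN epsilon at 100 IU/ml, the median of these genes over the untreated sample of the same date was 0.90 on date 1, 1.46 on date 2 and 1.61 on date 3, on the log2 scale. With IFN beta at 1000 IU/ml it was 1.03, 1.51 and 2.61 on the same dates. The compared samples thus lay close to each other on dates 1 and 2, and on date 3 the IFN beta sample stood higher. The excluded date 3 arrays of IFN beta were high as well, with medians of 1.93 at 10 IU/ml and 2.51 at 100 IU/ml, against 0.11 at 10 IU/ml on both other dates and 0.30 and 0.31 at 100 IU/ml. The IFN beta 1000 IU/ml array of date 3 was not marked as excluded, and it was kept here. Results are given with and without date 3, and what set that date apart was not tested.

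**Figure D1:**
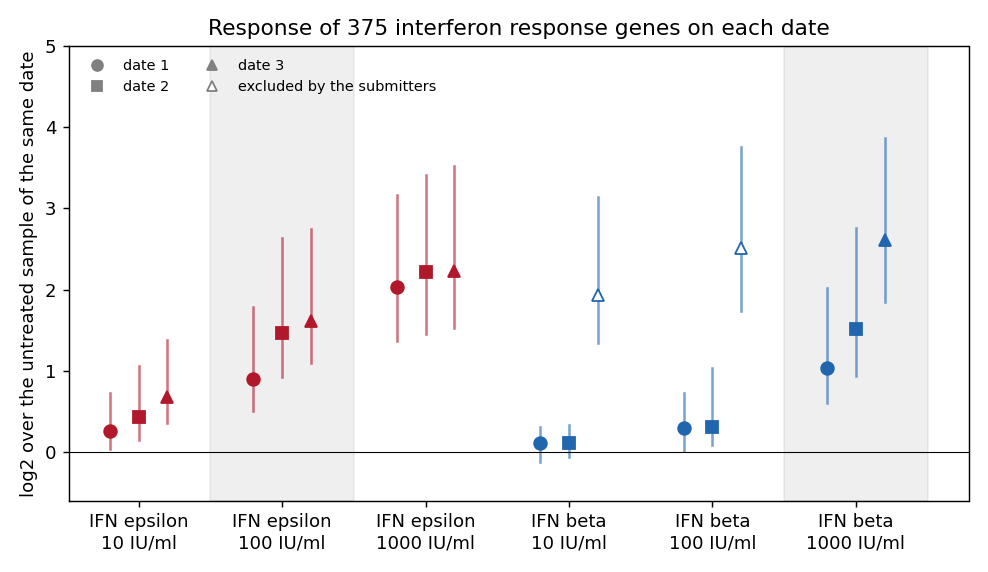
Median of 375 interferon response genes (points) with quartiles (lines), as log2 over the untreated sample of the same date, for each interferon, dose (IU/ml) and date; grey bands mark the compared groups and open triangles the arrays excluded by the submitters. IFN epsilon 100 IU/ml reached 0.90, 1.46 and 1.61, and IFN beta 1000 IU/ml 1.03, 1.51 and 2.61 on dates 1, 2 and 3.

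The interferon-stimulated response element core was searched as a pair of GAAA runs with 2 bases of any kind between them, on both strands of RefSeq promoter windows of GRCm38.p6, 250 bases before to 50 bases after each gene's start. A gene counted as holding a motif if any of its windows did. Of the 375 response genes, 287 had a window and 74 of these held the core (25.8%). The core was held by 414 of 11325 tested genes with a window (3.66%) and by 1079 of all 27025 genes with a window (3.99%). A gamma-activated site core, TTCNNNGAA, was held by 35 response genes with a window (12.2%), 8.38% of such tested genes and 9.55% of all such genes. Both motifs may overlap copies of themselves, and a match describes letters, not bound protein. The stretches below come from panel genes whose windows hold the core and span genes with small and large differences between the interferons. Each is written 5′ to 3′ on the strand of its gene, with matches of this core on either strand in capitals.
Isg15, chr4:156200866-156200905, minus strand: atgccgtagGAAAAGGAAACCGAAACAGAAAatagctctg
Ifit1, chr19:34640776-34640815, plus strand: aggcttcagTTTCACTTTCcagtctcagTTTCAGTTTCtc
Ifit3, chr19:34583364-34583403, plus strand: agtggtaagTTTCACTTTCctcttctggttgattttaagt
Rsad2, chr12:26456542-26456581, minus strand: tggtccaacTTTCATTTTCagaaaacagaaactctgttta
Socs1, chr16:10785589-10785628, minus strand: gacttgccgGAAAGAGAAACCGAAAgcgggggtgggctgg
Gbp2, chr3:142620595-142620634, plus strand: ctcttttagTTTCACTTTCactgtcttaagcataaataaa
Cxcl10, chr5:92349072-92349111, minus strand: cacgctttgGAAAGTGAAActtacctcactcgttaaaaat
Response genes with the core had a median difference between the interferons of -0.39 (74 genes) and those without it -0.31 (213 genes), where a difference is log2 of IFN epsilon 100 minus IFN beta 1000 IU/ml throughout. The genes with the core were also those with larger rises: the median at IFN epsilon 1000 IU/ml was 3.02, against 1.80 without it. On date 1 the medians were -0.17 with the core and -0.09 without. On date 2 they were -0.02 and 0.00, and on date 3 -0.88 and -0.83. Of the panel genes described below, Irf7, Ifnar1, Ifnar2, H2-K1, Tap1, Psmb9, Cd274 and Tnfsf10 had windows without the core.

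Gene by gene, limma called 0 of 14297 tested genes different between IFN epsilon at 100 IU/ml and IFN beta at 1000 IU/ml (0% of genes past a Benjamini-Hochberg adjusted p of 0.05; smallest adjusted p = 0.748). At an unadjusted p under 0.05, 903 genes differed (6.32% of those tested), 537 lower with IFN epsilon (3.76%) and 366 higher (2.56%). A missing call does not show equal levels, so the intervals matter. The 95% interval of the difference lay within 2-fold either way for 12824 genes (89.7%). It lay wholly beyond 2-fold for 2 genes, neither of them a response gene. For the response genes the bound was looser: the interval lay within 2-fold for 196 of 375 (52.3%), with a median reach of 0.62 to either side, against 0.24 over all genes.

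Among the response genes, 0 of 375 were called, and 27 were lower and 0 higher at an unadjusted p under 0.05. Their median difference was -0.34 (quartiles -0.55 and -0.22), a level of 0.79 of that with IFN beta, beside a median of -0.02 over all tested genes. The difference was below 0 for 355 of the 375 (94.7%), against 7846 of 14297 genes (54.9%). By date the median was -0.13, 0.01 and -0.87 on dates 1, 2 and 3, and 252, 184 and 360 response genes were lower with IFN epsilon on those dates. A difference of at least 2-fold below IFN beta was seen in 8 response genes on date 1, in 13 on date 2 and in 161 on date 3. Without the IFN beta sample of date 3 the median was -0.00992 with 191 genes below 0, and without both samples of that date it was -0.0674 with 234 below 0. Without the IFN beta sample of date 1 it was -0.566.

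**Figure D2:**
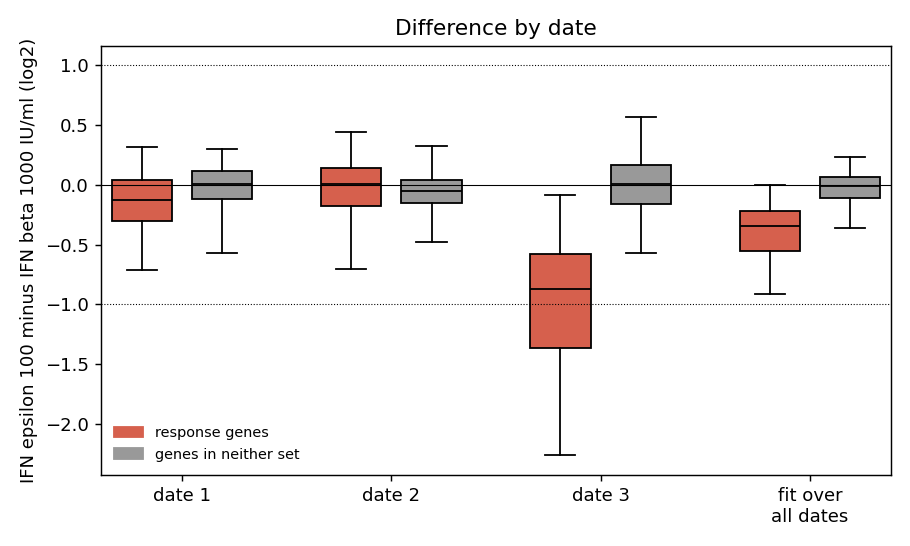
Difference between IFN epsilon 100 and IFN beta 1000 IU/ml (log2) on each date and in the fit over all dates, for the 375 response genes and for genes that neither rose nor fell with IFN epsilon 1000 IU/ml. Boxes give quartiles and medians, whiskers the central 90% of genes, and dotted lines 2-fold; the response gene medians are -0.13, 0.01 and -0.87 on dates 1, 2 and 3.

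The date 2 pair is the only one whose arrays share a slide, and its median difference over response genes was 0.01. On that slide the mean of the IFN epsilon samples of dates 2 and 3 minus the IFN beta sample of date 2 had a median of -0.02. That value mixes dates and breaks the pairing, so it is a description only. On dates 1 and 3 the arrays of a pair lay on different slides, so that slide and interferon cannot be told apart within those dates. The spread over dates, given without a test, was wider with IFN beta than with IFN epsilon: the median SD of a response gene was 0.469 over the IFN epsilon samples and 0.731 over the IFN beta samples, against 0.248 and 0.237 for other tested genes. For scale, the 2 arrays of an untreated sample differed by a median of 0.12, -0.01 and 0.01 over the response genes on dates 1, 2 and 3.

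Genes with larger rises had lower median differences, described here without a test. The median difference was -0.26 for the 102 response genes that rose by 1 to 1.5 (log2) at IFN epsilon 1000 IU/ml, -0.31 for the 123 at 1.5 to 2.5, -0.41 for the 92 at 2.5 to 4, and -0.55 for the 58 above 4. On date 2 the same bins had medians of -0.05, 0.02, 0.00 and 0.11, and on date 3 of -0.65, -0.89, -0.93 and -1.53. Date 1 had -0.06, -0.11, -0.16 and -0.26. The order across bins was thus seen on dates 1 and 3 and not on date 2. The response genes were also split into equal groups by the share of their 1000 IU/ml rise that IFN epsilon reached at 10 IU/ml, with median shares of 6.07%, 22.7% and 43.5%. The group with the smallest share had a median difference of -22.9% of its rise, the middle group -15% and the group with the largest share -9.31%. Their median log2 differences were -1.25, -0.94 and -0.67 on date 3, against -0.13, -0.07 and -0.17 on date 1 and -0.08, 0.04 and 0.02 on date 2, so this order was seen on date 3 alone.

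The 417 genes that fell with IFN epsilon 1000 IU/ml, chosen in the same fit of 13 samples, showed small differences. Their median was 0.06, and 415 had an interval within 2-fold. At an unadjusted p under 0.05, 30 of them were higher with IFN epsilon 100 IU/ml and 4 lower, and 0 were called. The dates gave medians of 0.03, -0.05 and 0.18.

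The levels of single genes show the same pattern. Isg15, a ubiquitin-like protein that is attached to other proteins during infection, had log2 levels relative to the array's 75th percentile of 6.67, 7.03 and 7.41 with IFN epsilon on dates 1, 2 and 3, against 6.80, 7.0 and 7.74 with IFN beta and 3.36, 2.59 and 4.37 in untreated cells. The interferon groups overlapped and every treated sample lay above every untreated one. The difference was -0.14 ± 0.24 (SE, n = 3 against 3, 95% interval -0.66 to 0.37, limma adjusted p = 0.939). Usp18, which removes Isg15 and restrains the receptor, had levels of 4.01, 4.99 and 5.19 with IFN epsilon, against 4.25, 4.98 and 5.63 with IFN beta. These samples overlapped, with a difference of -0.22 ± 0.29 (-0.86 to 0.41). Uba7, the enzyme that activates Isg15, had the lowest difference of the 6 tested genes of Isg15 conjugation, -0.27 ± 0.19, and Isg15 the highest. All 6 differences thus lay within a narrow band, and all 6 intervals lay within 2-fold. The medians of the 6 by date were -0.13, 0.04 and -0.57.

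Of the Ifit genes, which bind viral RNA, Ifit1 had levels of 3.15, 5.17 and 5.17 with IFN epsilon, against 3.85, 5.32 and 5.93 with IFN beta and -2.38, -2.50 and -0.49 in untreated cells. Its difference was -0.54 ± 0.42 (-1.45 to 0.38) and was negative on all 3 dates, with overlapping groups. Ifit3, which stabilises Ifit1 in human cells, had 4.04, 5.69 and 6.36 with IFN epsilon, against 4.58, 5.73 and 7.05 with IFN beta, a difference of -0.42 ± 0.51. Oas2, which makes the messenger that activates RNase L, had 2.33, 2.87 and 2.09 with IFN epsilon, against 2.84, 2.73 and 3.21 with IFN beta. Its date differences were -0.51, 0.14 and -1.13, so the sign turned on date 2. The interval of Oas2 ran from -1.20 to 0.20 around -0.50 ± 0.32.

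Rsad2, the enzyme viperin that makes a chain-terminating nucleotide, stood lower with IFN epsilon on each date. Its levels were -0.47, 3.61 and 3.26 with IFN epsilon, against 0.82, 4.31 and 5.66 with IFN beta and -4.28, -4.19 and -2.86 in untreated cells. The differences by date were -1.29, -0.70 and -2.40, and the fit gave -1.46 ± 0.70 (-2.99 to 0.06, adjusted p = 0.795). The 3 samples of each group ranged over more than the difference between the groups, so the groups overlapped across dates. That overlap does not bear on the differences within dates. Bst2, also called tetherin, which holds budding virus at the cell surface, lay at the other end of the antiviral list with 5.60, 5.22 and 5.71 against 5.52, 4.98 and 5.97, a difference of 0.02 ± 0.15.

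**Figure D3:**
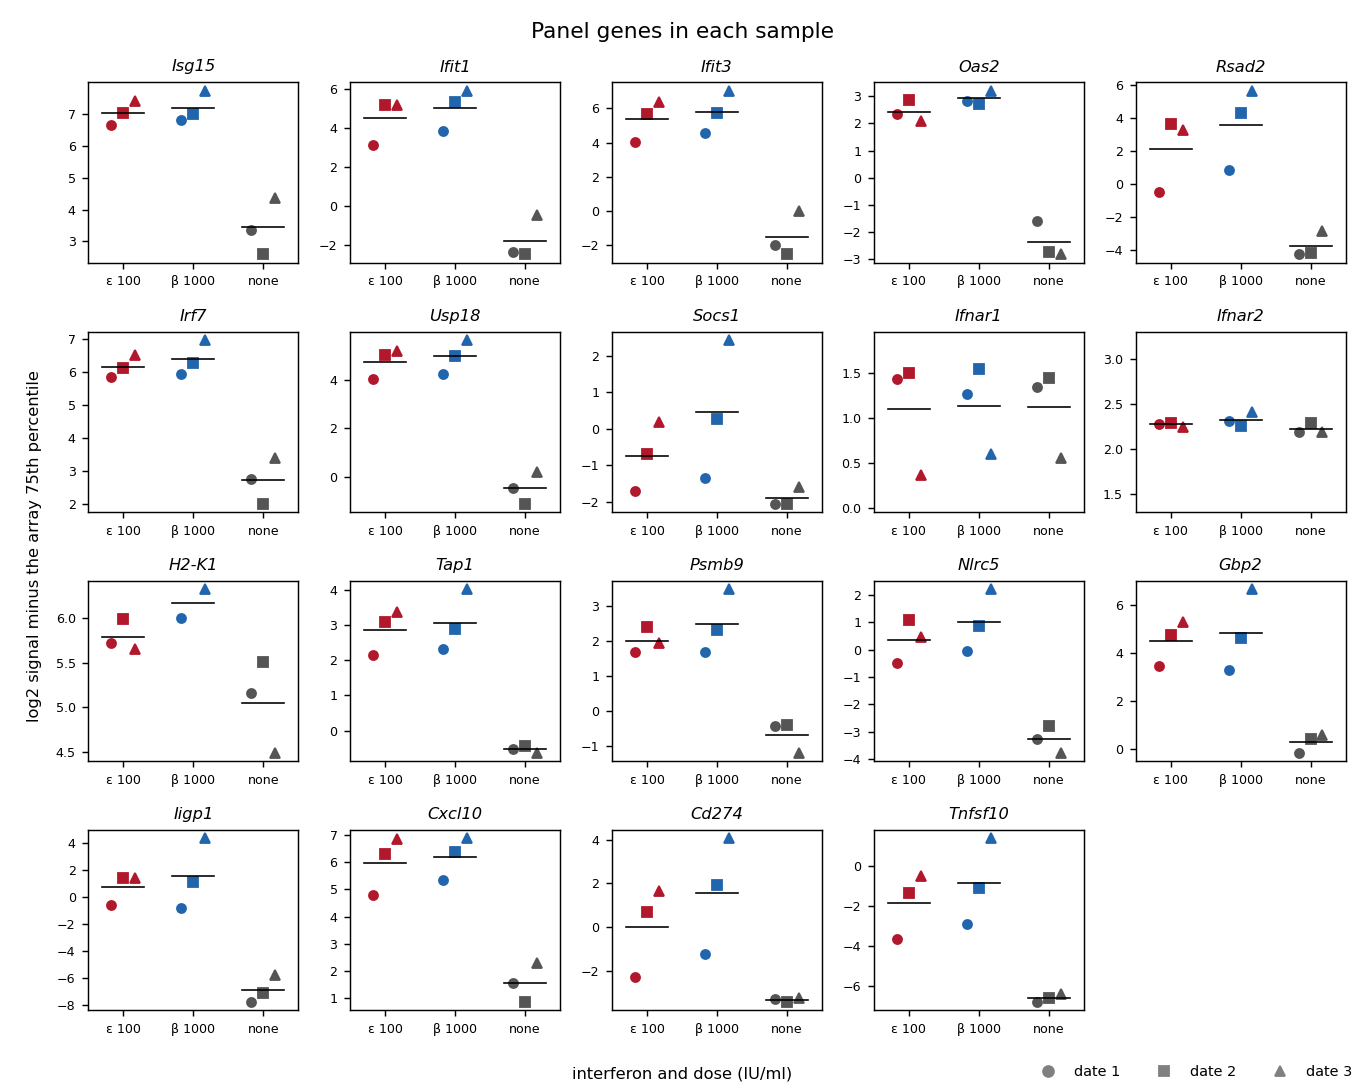
Log2 signal minus the array's 75th percentile of the 19 panel genes in each sample of IFN epsilon 100 IU/ml, IFN beta 1000 IU/ml and untreated cells; symbols mark dates and bars the means. Isg15 and Usp18 overlap between the interferons, Rsad2 and Cd274 spread most over dates with IFN epsilon and Cd274 and Iigp1 with IFN beta, and Ifnar1 and Ifnar2 lie at the untreated level.

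Antiviral effectors as a list had 44 of 49 genes tested, 0 called in either direction, a median difference of -0.31 and 43 members below 0, with 28 intervals within 2-fold. The medians by date were -0.19, -0.02 and -0.82. Against untreated cells, 36 of the 44 rose with IFN epsilon at 100 IU/ml and 38 with IFN beta at 1000 IU/ml, where 1.48% and 2.75% of all tested genes rose. Both counts share the untreated samples, which also helped to choose the response genes, and their difference was not tested. Nucleic acid sensors, which detect viral RNA and DNA, had 20 of 28 tested, 0 called and a median of -0.30 with 18 below 0. By date their medians were -0.12, -0.03 and -0.68, and without the IFN beta sample of date 3 the median was -0.069. Tlr3, a receptor for double-stranded RNA in endosomes, was lowest in that list at -0.91 ± 0.43 (-1.85 to 0.02), with 3 of 3 samples of both groups well above background. The other probe of Tlr3 gave -0.4. Aim2, a sensor of cytosolic DNA, was highest at 0.10 ± 0.62 but was well above background in 1 of 3 samples of each group, so this value lies mostly at the detection limit and sets no direction. PARP and Dtx3l genes, which modify proteins with ADP-ribose, had all 9 members below 0 with a median of -0.30 and all 9 intervals within 2-fold, from Parp8 at -0.07 ± 0.18 to the ubiquitin ligase Dtx3l at -0.41 ± 0.25. Their medians by date were -0.14, 0.04 and -0.66, with 3 of 9 below 0 on date 2, and leaving out the IFN beta sample of date 3 gave -0.0454. TRIM proteins, a family of ubiquitin ligases, had 12 of 15 tested and a median of -0.24, from Trim12c at -0.05 ± 0.21 to Trim21, an intracellular antibody receptor, at -0.77 ± 0.39. The TRIM medians were -0.19, 0.05 and -0.55 on the dates, and -0.029 without that sample.

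Interferon-inducible GTPases, which attack the vacuoles of intracellular pathogens, had date medians that lay further apart than those of any other list with more than 2 tested members. The 16 of 21 listed genes that were tested had a median difference of -0.51, all 16 below 0, 0 called and 2 intervals within 2-fold. By date the medians were -0.17, 0.11 and -1.37, and without the IFN beta sample of date 3 the median of the fit was -0.0117. Gbp2 had levels of 3.45, 4.75 and 5.27 with IFN epsilon, against 3.27, 4.60 and 6.64 with IFN beta and -0.15, 0.45 and 0.59 in untreated cells. It was slightly higher with IFN epsilon on dates 1 and 2 and lower on date 3, with differences of 0.18, 0.15 and -1.38. Iigp1, an immunity-related GTPase, had -0.60, 1.39 and 1.37 with IFN epsilon, against -0.86, 1.11 and 4.32 with IFN beta, and date differences of 0.26, 0.28 and -2.95. Gbp4 had the lowest difference of the list, -0.81 ± 0.64, made of 0.02, 0.18 and -2.63 on the dates. The highest was Ifi47 at -0.20 ± 0.18, and none of these genes passed the test. Members of the Gbp family and Tgtp-like GTPases are close in sequence, so probe signal may be shared between them.

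In the receptor and its signalling chain, 10 of 11 tested genes were below 0, with a median of -0.09 that turned to 0.0366 under median scaling, 0 called and 10 intervals within 2-fold. Ifnar1 had levels of 1.43, 1.5 and 0.37 with IFN epsilon, against 1.27, 1.55 and 0.60 with IFN beta and 1.35, 1.45 and 0.56 in untreated cells. Ifnar2 had 2.28, 2.29 and 2.24 with IFN epsilon, against 2.31, 2.25 and 2.41 with IFN beta and 2.19, 2.29 and 2.19 in untreated cells. Both chains overlapped among all 3 groups, with differences of -0.03 ± 0.10 (-0.26 to 0.19) and -0.05 ± 0.08 (-0.23 to 0.13), which turned to 0.09 and 0.07 under median scaling. Stat2, which carries the activation signal of the receptor to the nucleus with Irf9, had the lowest difference of the list at -0.45 ± 0.23 (-0.96 to 0.05), and Stat5b the highest at 0.00 ± 0.09.

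**Figure D4:**
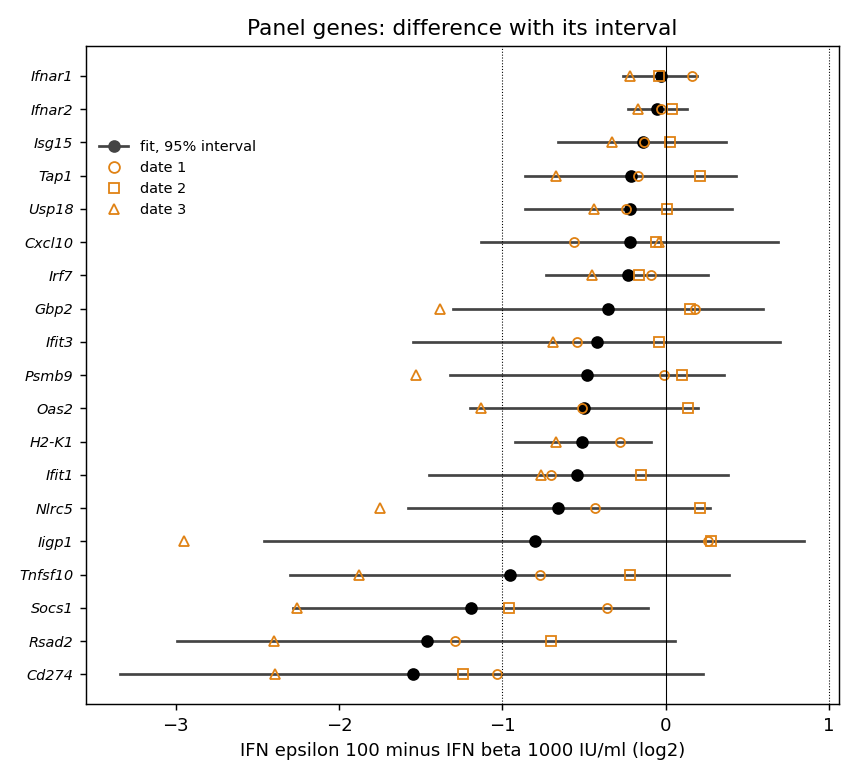
Difference between IFN epsilon 100 and IFN beta 1000 IU/ml (log2) for the 19 panel genes, with the 95% interval of the fit (black) and the difference on each date (orange); dotted lines mark 2-fold. All 19 fitted differences lie below 0, with Ifnar1 and Ifnar2 above 0 under median scaling, the intervals of Socs1 and H2-K1 lie wholly below 0, and none passed the adjusted threshold.

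Transcription factors of the pathway had a median difference of -0.24 over 16 tested genes, with 12 below 0 and 0 called. Irf7, which amplifies interferon production, had 5.84, 6.11 and 6.53 with IFN epsilon, against 5.93, 6.27 and 6.98 with IFN beta and 2.76, 2.01 and 3.41 in untreated cells. The groups overlapped, with a difference of -0.23 ± 0.23 (-0.73 to 0.26), and the other probe of Irf7 gave 0.06. Batf2, a basic leucine zipper factor, had the lowest value of the list, -1.31 ± 0.76, of which the dates contributed -0.39, -0.25 and -3.28. Irf3, which is activated without new synthesis, was highest at 0.13 ± 0.16.

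Negative feedback genes had a median of -0.12 (0.00791 under median scaling) over 18 tested genes, with 13 below 0, 3 lower and 2 higher at an unadjusted p under 0.05 and 0 called. Socs1, which blocks the Jak kinases, had -1.71, -0.70 and 0.18 with IFN epsilon, against -1.35, 0.26 and 2.44 with IFN beta and -2.06, -2.06 and -1.6 in untreated cells. The difference widened over the dates, at -0.36, -0.96 and -2.26, and the fit gave -1.19 ± 0.50 (-2.28 to -0.11, adjusted p = 0.788). The interval lay below 0 without adjustment. The groups overlapped across dates, which does not bear on the differences within dates. Pias4, an inhibitor of Stat activity, was highest at 0.25 ± 0.10 (0.04 to 0.45).

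MHC class I antigen presentation had 25 of 29 genes tested, a median of -0.19, 24 members below 0, 19 intervals within 2-fold and 0 called. By date the medians were 0.02, 0.13 and -0.67, and without the IFN beta sample of date 3 the median of the fit turned to 0.155. Tap1, which carries peptides into the endoplasmic reticulum, had 2.15, 3.09 and 3.37 with IFN epsilon, against 2.32, 2.88 and 4.03 with IFN beta. Its difference was -0.21 ± 0.30, and the other probe of Tap1 gave -0.5. Psmb9, a subunit of the immunoproteasome, had 1.68, 2.41 and 1.95 with IFN epsilon, against 1.69, 2.32 and 3.49 with IFN beta. On dates 1 and 2 its levels differed by -0.01 and 0.10, and on date 3 by -1.53. Nlrc5, which drives MHC class I transcription, had -0.47, 1.09 and 0.47 with IFN epsilon, against -0.03, 0.88 and 2.22 with IFN beta, and the lowest difference of the list (-0.66 ± 0.42). The highest was the class I gene H2-Q4 at 0.15 ± 0.16.

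H2-K1, a classical class I heavy chain, had 5.72, 5.99 and 5.65 with IFN epsilon, against 6.0 and 6.32 with IFN beta on dates 1 and 3 and 5.16, 5.51 and 4.49 in untreated cells. Its IFN beta spot of date 2 was an outlier and was left out, so the fitted -0.51 ± 0.19 (-0.92 to -0.09, adjusted p = 0.788) rests on 3 against 2 samples. Each of its 2 probes was lower with IFN epsilon, with differences between group means of -0.37 and -0.22. Averaging the probes gave 0.04, where the dimmer probe alone stood for the IFN beta sample of date 2. H2 genes are close enough in sequence to share probe signal. B2m, the light chain, differed by -0.29, 0.00 and -0.65 on the dates, with a fitted -0.32 ± 0.12.

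MHC class II genes had 12 of 16 tested, a median of -0.07 and 0 called. The median turned to 0.0525 under median scaling. The protease Ctss was the lowest member, but it was well above background in 0 of 3 samples with IFN epsilon and 1 of 3 with IFN beta. Both groups therefore lie near the detection limit and no fold is given. H2-Ab1, a class II beta chain, was highest at 0.32 ± 0.28, and its probes disagreed, from -1.26 to 0.32.

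Among chemokines and cytokines, 22 of 29 were tested, the median was -0.23, 15 were below 0 and 0 were called, with 4 lower and 2 higher at an unadjusted p under 0.05. The medians by date were -0.03, -0.07 and -0.38, and without the IFN beta sample of date 3 the median turned to 0.0205. Cxcl10, which attracts T cells, had 4.79, 6.33 and 6.85 with IFN epsilon, against 5.35, 6.39 and 6.89 with IFN beta and 1.54, 0.83 and 2.30 in untreated cells. On dates 2 and 3 its levels differed by -0.06 and -0.04, so the date 3 gap of other genes was not seen in Cxcl10. The fit gave -0.22 ± 0.42 (-1.13 to 0.69). Il6, an inflammatory cytokine, had -4.28, -3.68 and -1.16 with IFN epsilon, against -3.58, -2.53 and 1.32 with IFN beta and -4.78, -4.94 and -2.47 in untreated cells. It was lower with IFN epsilon on each date, with differences of -0.69, -1.15 and -2.47 (fit -1.44 ± 0.41, -2.34 to -0.54, adjusted p = 0.785). Cxcl1, which attracts neutrophils, ran the other way at 0.67 ± 0.24 (0.14 to 1.20), with levels of 2.70, 2.75 and 2.61 against 2.75, 1.66 and 1.65 with IFN beta and 2.67, 2.62 and 2.65 in untreated cells. The Cxcl1 samples of IFN epsilon lay at the untreated level and those of IFN beta below it on dates 2 and 3.

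Among cell surface and death ligands, Cd274 had the widest gap of the panel. Cd274, the gene of the immune checkpoint ligand PD-L1, had -2.27, 0.67 and 1.67 with IFN epsilon, against -1.24, 1.91 and 4.06 with IFN beta and -3.28, -3.44 and -3.25 in untreated cells. The differences by date were -1.03, -1.24 and -2.39, all lower with IFN epsilon, and the fit gave -1.55 ± 0.82 (-3.34 to 0.23, adjusted p = 0.797). The groups overlapped across dates, since each of them spread over more than the difference. This overlap does not bear on the differences within dates. Tnfsf10, the death ligand TRAIL, had -3.66, -1.33 and -0.48 with IFN epsilon, against -2.89, -1.11 and 1.4 with IFN beta, and was well above background in 0 of 3 untreated samples. Its difference was -0.95 ± 0.62 (-2.30 to 0.39). The 20 tested checkpoint and surface ligands had a median of -0.15 and the 35 genes of apoptosis, pyroptosis and necroptosis -0.07, with 0 called in both. Without the IFN beta sample of date 3 these medians turned to 0.00241 and 0.0261, and that of the death genes was 0.0528 under median scaling. In these lists the galectin Lgals3 was highest at 0.20 ± 0.20 and the survival factor Mcl1 at 0.24 ± 0.09. The other probe of Lgals3 gave -0.01.

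**Figure D5:**
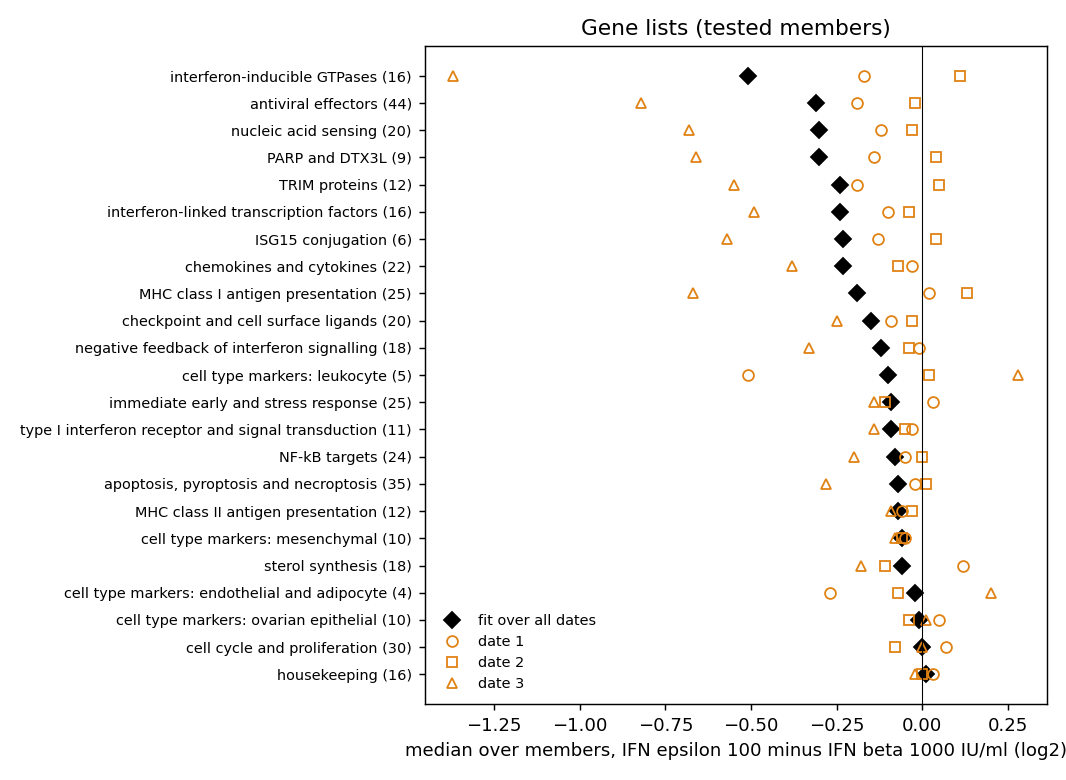
Median difference between IFN epsilon 100 and IFN beta 1000 IU/ml (log2) of each gene list, in the fit over all dates (black) and on each date (orange), with the number of tested members in brackets; the list of interferon genes, with 2 tested members, is not drawn. The GTPases, antiviral effectors and nucleic acid sensors have medians of -0.51, -0.31 and -0.30 and lie lowest on date 3, while housekeeping and cell cycle genes lie near 0.

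Some response genes were lower with IFN epsilon on every date. Of 373 with values on all dates, 131 were lower each time, against 2482 of 14280 tested genes (17.4%). A gap of at least 0.5 on each date was seen in 6 of the 375 (1.6%), against 65 of 14297 genes (0.455%), and these 6 were named after their values were seen: Cd274, Rsad2, Il6, Abi3bp, Tent5a and Clec2d. Tent5a, which encodes a poly(A) polymerase, had -0.37, 1.07 and 1.49 with IFN epsilon, against 0.13, 1.62 and 3.42 with IFN beta. Clec2d, a ligand of natural killer cell receptors, had -2.37, -0.66 and -0.22 against -1.71, -0.02 and 1.32. The differences were -0.99 ± 0.48 and -0.94 ± 0.49, and neither was called.

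Groups that did not overlap, with all 3 IFN epsilon samples below all 3 IFN beta samples, were found for 5 of 373 response genes. Among all tested genes they were found for 288 of 14280 (2.02%). This count ignores the pairing by date. Response genes also spread more over dates than other tested genes, so nothing is read from their share. All 3 samples lay above for 0 response genes, beside 131 of the tested genes (0.917%). The 5, named after their values were seen, were Abi3bp, Ctss, Spef2, H2-T24 and Padi4. With IFN epsilon, Ctss was well above background in 0 of 3 samples and Spef2 in 1 of 3. Abi3bp, which encodes a matrix protein, had -5.75, -5.36 and -7.26 with IFN epsilon, against -4.89, -3.60 and -5.21 with IFN beta and -4.99, -5.46 and -7.03 in untreated cells. Abi3bp was the response gene with the smallest p of the comparison, at -1.55 ± 0.33 (-2.27 to -0.84, limma adjusted p = 0.748), and its other probe gave -0.67. The probe used was well above background in 1 of 3 samples with IFN epsilon and 3 of 3 with IFN beta. H2-T24, a non-classical class I gene, had -3.39, -3.19 and -3.80 against -3.10, -2.90 and -2.98, a difference of -0.47 ± 0.19.

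The lowest difference of any response gene was that of Acod1, which makes itaconate, at -1.58 ± 0.56 (-2.80 to -0.36, adjusted p = 0.785). Its levels were -7.76, -4.16 and -3.99 with IFN epsilon, against -5.29, -3.86 and -2.02 with IFN beta, and it was well above background in 2 and 3 of 3 samples. At the top, Ctrl, a chymotrypsin-like protease, had -3.79, -2.44 and -3.45 against -4.64, -3.32 and -3.40, a difference of 0.56 ± 0.42. The next were 9330175E14Rik, Il7, Olfr985 and Tm6sf1, which were dim. Il7 and Tm6sf1 were well above background in 0 of 3 samples of both groups, and 9330175E14Rik was so in 2 of 3 samples with IFN epsilon and 0 of 3 with IFN beta, so no fold is given for these 3. Olfr985 was well above background in 1 of 3 samples of each group, and its 0.14 ± 0.82 likewise lies mostly at the detection limit and sets no direction.

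The neighbouring dose pairs place this comparison. In the same fit, IFN epsilon at 100 IU/ml against untreated cells gave 211 genes higher (1.48%) and 15 lower (0.105%), 190 of the response genes among the 211. IFN beta at 1000 IU/ml gave 393 higher (2.75%) and 73 lower (0.511%), with 290 response genes. At the equal dose of 100 IU/ml, IFN epsilon stood above IFN beta for 52 genes (0.364%) and below for 0. The response genes had a median difference of 0.90. The fit held IFN beta 100 IU/ml on dates 1 and 2 only. The excluded date 3 array of this dose had a response gene median of 2.51 over untreated cells, against 1.61 with IFN epsilon. How that array would change the 52 calls was not tested. At the equal dose of 1000 IU/ml 0 genes were called, 854 genes had an unadjusted p under 0.05, and the median was 0.31. The other pair with a 10-fold gap, IFN epsilon 10 against IFN beta 100 IU/ml, gave 0 calls, 375 genes at an unadjusted p under 0.05 and a median of 0.02 without a date 3 sample of IFN beta. IFN epsilon 100 against its own 1000 IU/ml gave a median of -0.69 with 0 response genes called, and the 2 genes called lower (0.014%), Angptl8 and Slc16a9, were no response genes. The response genes were chosen for high values in the IFN epsilon 1000 IU/ml samples, so both medians against those samples, 0.31 and -0.69, are partly fixed by that choice and are descriptions only. These pairs share samples and their counts are given side by side only.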

How the data were processed

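RNA of ID8 cells was measured on single-colour Agilent mouse arrays. The deposited scanner files hold each spot's processed signal, an intensity that Agilent Feature Extraction 11.0.1.1 background-subtracted within the array, per the file headers. The deposited table of processed values is on a log2 scale; per the submitters' processing notes it involved limma 3.42.0 under R 3.6.1, but no source used here gives its steps. Its columns had medians of 5.73 to 5.79 over probe spots and correlated at 0.989 to 0.995 with log2 of their own array's scanner signal, which gave scale and direction; centring and background treatment stay unknown, and it served as an alternative.

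Control spots and outlier spots (79 to 280 per array) were left out, spots of a probe were averaged, and the 75th percentile of an array was subtracted from its log2 processed signals. Of 56605 probes, 32994 matched 22911 genes through RefSeq accessions and 23611 did not match. Probes had to be well above background in 2 or more samples of a group, with both arrays required for an untreated sample, and the brightest probe stood for its gene. The 2 arrays of an untreated sample were averaged and the 2 excluded arrays left out.

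Limma 3.58.1 in R 4.3.3 (lmFit, eBayes) fitted all 7 groups with replicate number as a block (10 residual degrees of freedom), with Benjamini-Hochberg adjustment over 14297 genes and calls at adjusted p under 0.05. Replicate numbers pair the samples because replicates were made on separate dates, per the labels. Same-numbered samples of the compared groups correlated at 0.637, 0.625 and 0.735 in their deviations from group means, and others at 0.0668 at most. Deviations within a group cancel out, so the low values of the others are partly built in. On simulated data for this comparison (14266 genes), 81 of 100 genes changed by 1 and 93 of 100 changed by 2 on the log2 scale were called, with 8 false calls. The changed genes were drawn at random from all genes, with noise independent between samples. Response genes had wider intervals, with a median reach of 0.62 against 0.24 over all genes, so these rates do not describe them. The number of arrays limits the precision.

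The members, the response gene rule and the gene lists were chosen with earlier results of these data known. Named were a panel of 19 genes (another panel gene is not reported here), the 5 response genes with the highest and the 5 with the lowest difference, the highest and lowest member of each list, and any called gene; genes named after their values were seen are marked so. Alternatives changed the block, slide, samples, scaling, background, filter and probe rule. The normexp alternative (offset 50) used the median spot signal, since the files hold no mean signal. The R package for reading files was data.table (1.17.8), and plots were made with Python 3.11.15, matplotlib 3.10.9, pandas 2.3.3 and numpy 2.4.6.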

Additional observations from a re-analysis of the deposited data

Results flagged for a closer look

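Signal was seen in the 2 arrays that the submitters excluded and that no comparison above uses. On date 3, the response genes had a median of 1.93 (log2) over the untreated sample with IFN beta at 10 IU/ml and of 2.51 at 100 IU/ml, well above the medians of these doses on dates 1 and 2. The IFN beta 1000 IU/ml array of date 3, at 2.61, was not marked as excluded and enters the comparison. These arrays lay on slides 1, 3 and 3 in that order, and what raised them was not tested.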

How the results depend on the processing

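All 11 alternatives other than leave-outs kept the response gene median below 0, between -0.349 and -0.244. Under 10 of them 0 genes were called, and median scaling called 8 (7 lower, 1 higher). The 7 lower genes were well above background in 0 of 3 samples with IFN epsilon, and none of the 8 was a response gene. With no replicate block 0 genes were called and the median was -0.349, with 303 response genes, of which 121 had an interval within 2-fold, and 159 genes at an unadjusted p under 0.05, so that the pairing by date changed no call. With all 24 arrays 85 response genes were left, 18 of them within 2-fold. Median scaling shifted all genes by 0.125, and the response median minus that of all tested genes was then -0.391, against -0.324 without it. Leaving out single samples or whole dates gave 0 to 3 called genes, a response median of -0.566 to -0.00992, 108 to 274 response genes and 12006 to 12744 genes within 2-fold, and 0 response genes called. The alternatives that leave out whole dates were chosen after seeing the data. The genes called, named after their values were seen, were Taar4 without the IFN epsilon sample of date 3; Slc22a30, Tph1 and Trim72 without the IFN beta sample of that date; Slc22a30, Taar4 and Trim72 without both; and Slc22a30 and Trim72 with date 3 left out of all groups, joined by Taar4 with no replicate block. Each of these 4 was well above background in 2 of 3 samples of one interferon and 0 of 3 of the other, and none was a response gene.

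Some differences changed sign and none of them was called. They include sizeable ones: Gbp4, Iigp1, Nlrc5 and Psmb9, at -0.81, -0.80, -0.66 and -0.48 over all samples, turned without the IFN beta sample of date 3. Median scaling gave 0.09 for Ifnar1, 0.07 for Ifnar2, 0.05 for Parp8 and 0.07 for Trim12c. The slide terms gave -0.62 for Olfr985 and 0.12 for Trim12c. The normexp background gave 0.1 for Ifnar1, -0.05 for Stat5b, -0.1 for Bst2 and -0.2 for Aim2. The deposited table gave 0.11 for Ifnar1, -0.04 for Stat5b, -0.08 for Bst2 and -0.1 for Aim2. The mean of probes gave 0.04 for H2-K1 and -0.52 for H2-Ab1. Over the leave-outs Ifnar1 ranged from -0.13 to 0.06, Ifnar2 from -0.11 to 0.01, Tap1 from -0.46 to 0.16, Psmb9 from -0.89 to 0.18, Nlrc5 from -1.09 to 0.02, Gbp2 from -0.82 to 0.27, Gbp4 from -1.51 to 0.28, Iigp1 from -1.6 to 0.27 and Cxcl10 from -0.59 to 0.19. Likewise Olfr985 ranged from -0.73 to 1.2, Stat5b from -0.05 to 0.11, Bst2 from -0.09 to 0.19, Aim2 from -0.73 to 1.14, Parp8 from -0.2 to 0.18, Trim12c from -0.3 to 0.22 and Lgals3 from -0.12 to 0.48. The cause was not tested.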

Other observations

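Gene lists not drawn from the interferon pathway, cell type markers included, had medians between -0.1 and 0.01 for IFN epsilon at 100 IU/ml against IFN beta at 1000 IU/ml. In each of them 0 genes were called. They are not free of interferon response: the NF-kB list holds 2 response genes, Il6 and Nos2, and the housekeeping list holds B2m, which rose with both interferons. The 30 tested cell cycle genes had a median difference of 0.00, from Rrm2, a subunit of ribonucleotide reductase, at 0.22 ± 0.08 to the mitotic kinase Plk1 at -0.14 ± 0.06. The 18 sterol synthesis genes had a median of -0.06, or 0.0674 under median scaling, between Mvd at 0.13 ± 0.18 and Idi1 at -0.22 ± 0.08, both enzymes of the mevalonate pathway. All 25 tested immediate early and stress genes had an interval within 2-fold, with a median of -0.09 that turned to 0.0352 under median scaling. Their highest member was asparagine synthetase, Asns, at 0.19 ± 0.09, and their lowest the transcription factor Klf4 at -0.33 ± 0.22, with date differences of 0.15, -0.17 and -0.98. The 24 tested NF-kB targets had a median of -0.08, or 0.0476 under median scaling and 0.00114 without the IFN beta sample of date 3, with Cxcl1 and Il6 at its ends. Housekeeping genes had a median of 0.01, and Rpl13a, which encodes a ribosomal protein, was highest at 0.51 ± 0.20.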
